A study of Homo sapiens with 4 samples.

Results

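The genes described here encode 9 enzymes of serine synthesis and of the folate-dependent one-carbon pathway, *PHGDH*, *PSAT1*, *PSPH*, *SHMT1*, *SHMT2*, *MTHFD1*, *MTHFD2*, *MTHFD1L* and *TYMS*. They were listed by name, as members of the textbook pathway and with no threshold on a value, though earlier results of these data were known when the list was made. They are 9 of the 60564 genes in the count files. RNA-seq was performed on Elf1, a naïve human embryonic stem cell (ESC) line from 1 embryo, under 2 culture conditions with 2 libraries each, described in the methods as independent biological replicates. The 2-D grown cells were adherent on plastic coated with Matrigel, a basement membrane extract, per their labels. The methods describe upkeep of the line on mouse embryonic feeder cells and a change to Matrigel without feeders ahead of encapsulation. The 3-D grown cells were dissociated to single cells, enclosed in a gel that formed as PEG-8-SH cross-linked with PEG-8-Acr, and kept there for 21 days. Both conditions used the same ESC expansion medium, which per the methods held FGF2, LIF, CHIR99021 and PD03296501, and neither carried a genetic change. The comparison asked how gene expression of this line differed between the 2 kinds of culture. Both the shape of the culture and its handling differed, since the scaffolds were not passaged during the 21 days. The paper also reports slower proliferation of the cells in scaffolds than of the adherent cells. Shape, handling and growth rate cannot be told apart, and the part of growth rate in the results below was not tested.

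PHGDH, PSAT1 and PSPH convert the glycolytic intermediate 3-phosphoglycerate into serine in consecutive steps. SHMT1 in the cytosol and nucleus and SHMT2 in mitochondria then move a carbon from serine onto tetrahydrofolate, which yields glycine. MTHFD2 and MTHFD1L carry that carbon on to formate in mitochondria, MTHFD1 takes formate back into the cytosolic folate pool, and TYMS uses the cytosolic folate to make thymidylate for DNA. Fast-growing cells, pluripotent cells among them, are known for high activity of this pathway, and ATF4, the amino acid response factor, is a known activator of several of its genes.

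To show the sequence in front of RefSeq start sites of the genes that the results turn on, the bases upstream of those sites are given. The sites of *MTHFD2* and *MTHFD1L* lie inside the gene spans given below. RefSeq promoter windows of build GRCh38.p14 were at hand for 7 of the 9 genes, in 10 windows, because *MTHFD1L* has 4 start sites there. *PSPH* and *SHMT2* had no window. *PSAT1* and *MTHFD2* are shown because they fell in 3-D grown cells under every setting tried, *TYMS* because it overlaps other genes at both ends, and *MTHFD1L* because it held the only match to the ATF4 core. Capitals mark the motif matches. Both windows are of 250 bases on the plus strand and end at the base before the start site, *PSAT1* at chr9:78296875-78297124 and *TYMS* at chr18:657403-657652.
PSAT1 window: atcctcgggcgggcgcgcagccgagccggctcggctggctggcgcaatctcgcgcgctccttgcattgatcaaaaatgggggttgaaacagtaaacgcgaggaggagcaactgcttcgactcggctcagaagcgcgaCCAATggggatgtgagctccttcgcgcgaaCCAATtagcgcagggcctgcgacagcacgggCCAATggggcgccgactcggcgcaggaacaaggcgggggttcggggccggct
TYMS window: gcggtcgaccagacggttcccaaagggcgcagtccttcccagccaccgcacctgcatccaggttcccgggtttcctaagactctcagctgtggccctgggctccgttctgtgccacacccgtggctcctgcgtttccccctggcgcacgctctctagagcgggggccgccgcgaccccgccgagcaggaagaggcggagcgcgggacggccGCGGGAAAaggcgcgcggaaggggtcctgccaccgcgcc
MTHFD2, chr2:74198421-74198445: tcttctggctCCAATcaaaagcagg
MTHFD2, chr2:74198531-74198555: gcggcagggaCCAATgggtggcgga
MTHFD1L, chr6:150866347-150866374: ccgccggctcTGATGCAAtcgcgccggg

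The *PSAT1* window held 3 CCAAT boxes, at 113, 83 and 52 bases before the start, and no annotated exon. *MTHFD2* held 2, at 184 and 74 bases before its start. Of that *MTHFD2* window, 201 bases are annotated exon of *MTHFD2* itself or of the lncRNA gene ENSG00000279070. Searched on both strands, CCAAT was found in 8 of the 10 windows, belonging to 6 of the 7 genes. It was found in 32.0% of 35116 windows of the same length across the genome. The *MTHFD1L* windows among the 8 overlap and hold the same CCAAT, so the 8 are not separate matches. The 32.0% is a share of windows and *MTHFD1L* had 4 of them, so the count of genes cannot be set against it. *TYMS* was the gene without CCAAT, and held instead the E2F core TTTNNCGC 39 bases before its start, a motif found in 5.92% of windows. Of that *TYMS* window, 195 bases are also exon of the antisense lncRNA gene *TYMSOS*. The ATF4 core TGATGNAA was found in 2 overlapping *MTHFD1L* windows, at the same place, and in 3.14% of all windows. The E-box CACGTG was found in 3 windows, 1 of *MTHFD1* and the same overlapping 2 of *MTHFD1L*, against 6.35% of all. These are matches of letters, and no binding was measured here.

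Counts summed to 33833778 and 30114220 in the 2-D libraries and to 21154409 and 18276147 in the 3-D libraries. The 9 genes had between 628 and 14854 counts in each library, so each was well covered, and all passed the filter on low counts that left 22555 genes for testing. Levels are given as CPM, the counts scaled to a common library size, after TMM correction for the make-up of a library. Genes of the mitochondrial genome took 5.10% and 5.30% of the counts in 2-D and 8.33% and 8.50% in 3-D. The core pluripotency genes were high, with *NANOG* between 197 and 216 CPM and *SOX2* between 215 and 258 CPM. Of 8 naïve markers, *ZFP42* lay between 153 and 165 CPM, *TFCP2L1* between 22.1 and 23.8, *DNMT3L* between 14.6 and 17.9, *KLF4* between 9.26 and 10.4 and *DPPA3* between 5.75 and 7.43 CPM. *KLF5* lay between 46.9 and 57.2 CPM and rose in 3-D (log2 fold change 0.26, adjusted p = 0.0034 in edgeR's test). *KLF17* lay between 0.465 and 1.07 CPM and *DPPA5* between 0 and 0.130 CPM, so these 2 of the 8 were close to absent in both conditions. Of 5 primed markers, *CD24* lay between 868 and 906 CPM, *ZIC2* between 24.8 and 27.9, *OTX2* between 21.3 and 24.0 and *DUSP6* between 1.86 and 3.29 CPM. *SFRP2* lay between 95.4 and 118.5 CPM and rose (0.28, adjusted p = 2.2e-04 in edgeR's test), and the other 4 did not pass. Summed markers of endoderm, neural ectoderm and trophoblast were at most 7.86 CPM in any library, while those of mesoderm summed to between 65.6 and 70.2 CPM, mostly *MIXL1* and *TBXT*, with no mesoderm gene past the test. The 6 fibroblast markers summed to 446 and 455 CPM in 2-D and to 456 and 497 CPM in 3-D. Most of that was *COL1A2*, between 301 and 325 CPM, which did not pass (log2 fold change -0.037, adjusted p = 0.649 in edgeR's test). *COL1A1* and *COL3A1* rose. *PDGFRA* was at most 1.56 CPM and did not pass. *DCN*, a defining marker, and *LUM* were at most 0.195 and 0.948 CPM and were not tested. The part of the mitochondrial share and of these markers in the results below was not tested, and in bulk RNA fewer expressing cells and less RNA per cell cannot be told apart.

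Among the 9 enzymes, 3 fell in 3-D grown cells (*PSAT1*, *MTHFD2* and *TYMS*), 1 rose (*SHMT2*) and 5 did not pass the test. The test was edgeR's quasi-likelihood test over all tested genes with Benjamini-Hochberg adjustment, at an adjusted p of 0.05, a threshold that 7.9% of all tested genes passed, 4.54% higher and 3.36% lower in 3-D. Better measured genes pass more often. Of the 6359 genes with a mean of at least 30 CPM, which all 9 enzymes reach, 20.6% passed, 12.6% higher and 7.94% lower. The changes were small. The median log2 fold change of the 9 genes was -0.11, against -0.000135 for all tested genes, and the median size of their change was 0.11, against 0.075 for genes of at least 30 CPM. In 8 of the 9 genes the libraries of the 2 conditions did not overlap, which also held for 50.5% of all tested genes and 67.3% of those of at least 30 CPM. Together the 9 genes took 0.178% and 0.177% of the counts in 2-D and 0.159% and 0.160% in 3-D, shares of totals that include the mitochondrial counts. After TMM scaling they summed to 1748 and 1726 CPM in 2-D and to 1638 and 1626 CPM in 3-D.

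**Figure D1:**
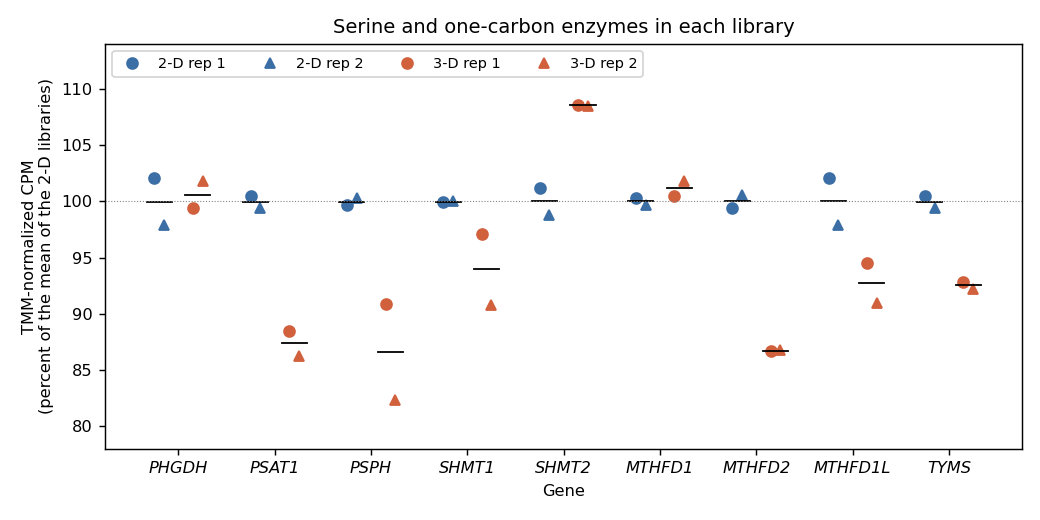
TMM-normalized CPM of each enzyme gene in each of the 4 libraries, as a percent of the mean of the 2-D libraries (vertical axis, which does not start at 0). Circles are replicate 1, triangles replicate 2, blue 2-D, orange 3-D, and black lines the mean of each condition. *PSAT1* and *MTHFD2* lie between 86.3 and 88.5 percent in both 3-D libraries, *SHMT2* at 109 percent in both, and *PHGDH* is mixed.

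Serine synthesis was first examined in the order of its steps. *PHGDH* (chr1:119648411-119744218, hg38, plus strand), whose enzyme opens the pathway by oxidizing 3-phosphoglycerate, was measured at 216 and 207 CPM in 2-D and at 211 and 216 CPM in 3-D. The libraries of the 2 conditions overlapped. Its log2 fold change of 3-D over 2-D was 0.0083 ± 0.033 (SE, n = 2 per condition), with an adjusted p of 0.923 in edgeR's test and a 95% interval from -0.063 to 0.079, that is, a change in level from -4.24% to 5.64% in 3-D.

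*PSAT1* (chr9:78297125-78330093, plus strand), encoding the aminotransferase of the next step, was measured at 431 and 427 CPM in 2-D grown cells and at 379 and 370 CPM in 3-D grown cells. Every 3-D library lay below every 2-D library. The log2 fold change was -0.19 ± 0.03 (SE), a level 12.6% lower in 3-D (95% interval 8.56% to 16.5%), with an adjusted p of 0.0018 in edgeR's test. It ranked 345th of all tested genes by p. The fall passed the threshold in all 13 alternative settings and with each library left out in turn, with log2 fold changes from -0.26 to -0.14 and from -0.21 to -0.18.

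*PSPH* (chr7:56011051-56051604, minus strand), encoding the phosphatase that releases serine, was measured at 42.4 and 42.7 CPM in 2-D and at 38.7 and 35.0 CPM in 3-D. Both 3-D libraries were lower, but they differed from each other by more than the 2-D libraries did. The log2 fold change of -0.21 ± 0.06 (SE) was as large as that of *PSAT1*, and its adjusted p in edgeR's test was 0.054, so it did not pass. It passed in 6 of the 13 alternatives and without 3-D replicate 1, where the adjusted p was 0.0034. *PSPHP1*, an unprocessed pseudogene of *PSPH* that is 92.9% identical over 55.9% of the transcript, had 127 and 140 counts in 2-D and 37 and 37 in 3-D and fell (log2 fold change -1.09, adjusted p = 0.0037 in edgeR's test). Reads shared between *PSPH* and this pseudogene could be placed on either, and the part of this in the value of *PSPH* was not tested.

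The serine hydroxymethyltransferases were compared next. *SHMT1* (chr17:18327860-18363563, minus strand), the cytosolic enzyme, was measured at 53.0 and 53.1 CPM in 2-D and at 51.5 and 48.1 CPM in 3-D. The 3-D libraries were lower without overlap, yet the log2 fold change of -0.09 ± 0.05 (SE) did not pass (adjusted p = 0.317 in edgeR's test), and its interval ran from -0.19 to 0.014. Without 3-D replicate 1 and 2 the value was -0.14 and -0.04. *SHMT2* (chr12:57229573-57234935, plus strand), the mitochondrial enzyme, was measured at 142 and 138 CPM in 2-D and at 152 CPM in both 3-D libraries. Here the 3-D libraries were the higher ones. The log2 fold change was 0.12 ± 0.03 (SE), a level 8.56% higher in 3-D (interval 3.80% to 13.5%), and the adjusted p was 0.029 in edgeR's test. This call was fragile. It passed in 5 of the 13 alternatives, and its adjusted p rose to 0.124 when 2-D replicate 1 was left out and to 0.363 when 2-D replicate 2 was. With libraries scaled by their total counts alone, mitochondrial counts included, the log2 fold change was 0.05 with an adjusted p of 0.316, and with offsets for length and GC content it was 0.08 with 0.143.

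In the mitochondrial formate branch, *MTHFD2* (chr2:74186172-74217565, plus strand), the dehydrogenase and cyclohydrolase of that branch, was measured at 301 and 305 CPM in 2-D grown cells and at 263 CPM in both 3-D libraries. The 4 libraries fell into 2 tight pairs. The log2 fold change was -0.21 ± 0.03 (SE), a level 13.3% lower in 3-D (interval 9.34% to 17.0%), with an adjusted p of 0.0011 in edgeR's test and rank 259 of all tested genes. Like *PSAT1*, it passed in all 13 alternatives and with each library left out, with log2 fold changes from -0.27 to -0.20 and from -0.21 to -0.20. Of its exon bases, 1324, or 11.6%, are also exon of the antisense gene *SLC4A5*, which had 1117 and 995 counts in 2-D and 436 and 354 in 3-D and fell as well (log2 fold change -0.66, adjusted p = 1.15e-04 in edgeR's test). Another 295 bases are exon of the antisense gene ENSG00000264324, with 1859 and 1781 counts in 2-D and 1075 and 1017 in 3-D. *MTHFD2* itself had 10371 and 9390 counts in 2-D and 5398 and 4711 in 3-D. The strand setting of the counting is not given in the sources used here. It is therefore not known whether reads of *MTHFD2* and of these antisense genes were kept apart on the shared bases. Most exon bases of *MTHFD2* are not shared with them.

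*MTHFD1L* (chr6:150865679-151101887, plus strand), the mitochondrial formate-producing synthetase, was measured at 120 and 115 CPM in 2-D and at 112 and 107 CPM in 3-D. The 3-D libraries were the lower ones, but the gap to the nearest 2-D library was smaller than the distance between the 2-D libraries. The log2 fold change was -0.11 ± 0.03 (SE), with an adjusted p of 0.077 in edgeR's test, and it passed in 3 of the 13 alternatives. Without 3-D replicate 1 the adjusted p was 0.0076.

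In the cytosol, *MTHFD1* (chr14:64388031-64463457, plus strand), the trifunctional enzyme that interconverts the folate forms, was measured at 301.7 and 299.9 CPM in 2-D and at 302.4 and 306.4 CPM in 3-D. The conditions did not overlap, but the gap between them was smaller than the distance between libraries of a condition. Its log2 fold change was 0.017 ± 0.029 (SE), with an adjusted p of 0.812 in edgeR's test and an interval from -0.047 to 0.081. *TYMS* (chr18:657653-673578, plus strand), thymidylate synthase, was measured at 140 and 138 CPM in 2-D and at 129 and 128 CPM in 3-D. All 3-D values were lower. The log2 fold change was -0.11 ± 0.03 (SE), a level 7.47% lower (interval 3.32% to 11.5%), and the adjusted p was 0.034 in edgeR's test. It passed in 7 of the 13 alternatives. Leaving out 2-D replicate 1 gave an adjusted p of 0.295, and leaving out 2-D replicate 2 gave 0.216.

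Overlap with other genes was largest for *TYMS*. Of its exon bases, 967, or 39.9%, are also exon of the antisense gene *ENOSF1*, and 193 are exon of *TYMSOS*, the lncRNA gene named above. *ENOSF1* had 4705 and 4063 counts in 2-D and 2466 and 2154 in 3-D and fell (log2 fold change -0.16, adjusted p = 0.0067 in edgeR's test, and 0.112 without 2-D replicate 1). For *TYMSOS* the log2 fold change was -0.12 with an adjusted p of 0.471 in the same test. As for *MTHFD2*, it is not known whether reads of *TYMS* and of its antisense partners were kept apart on the shared bases. Antisense lncRNA genes also share 352 exon bases, or 7.67%, with *SHMT2* (ENSG00000276727) and 1556, or 8.96%, with *MTHFD1* (ENSG00000272909). Smaller overlaps of the enzyme genes are not all named. No enzyme gene had a near-identical copy elsewhere in hg38, defined as 80% of the transcript aligned with 98% identity. The pseudogene *MTHFD1P1*, 94.3% identical over 98.4% of the *MTHFD1* transcript, had 107 and 95 counts in 2-D and 57 and 50 in 3-D.

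**Figure D2:**
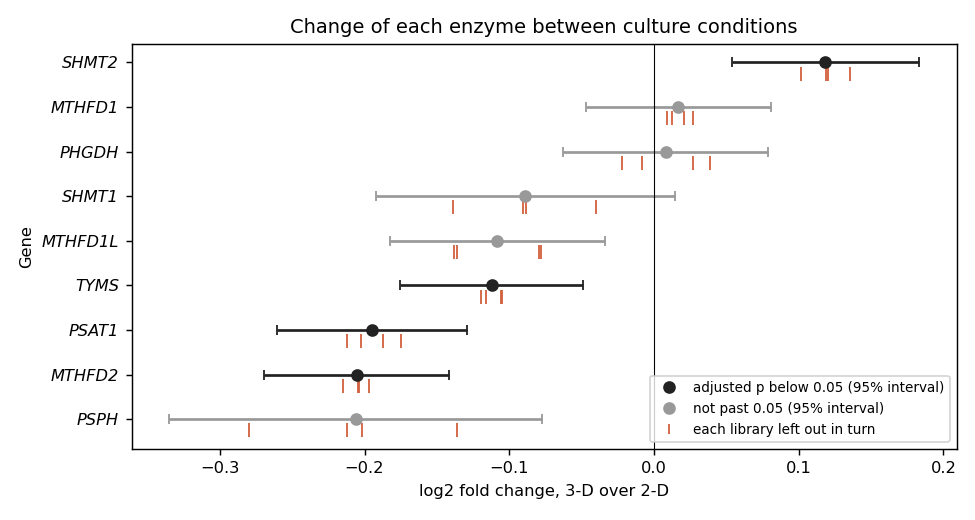
Log2 fold change of 3-D over 2-D (horizontal axis) for each enzyme gene, with its 95% interval. Black marks adjusted p below 0.05, grey the others, and orange ticks are the values with each library left out in turn. *PSPH* has the widest interval, from -0.33 to -0.077, and the ticks of *PHGDH* lie on both sides of 0.

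Levels of different genes were compared per kilobase of exon. *PSAT1* was highest with 194 ± 1.51 CPM per kilobase (mean ± SD, n = 2) in 2-D and 170 ± 3.03 in 3-D, followed by *TYMS*, *SHMT2*, *MTHFD2*, *MTHFD1L*, *PHGDH*, *MTHFD1*, *PSPH* and *SHMT1*, the last at 7.56 ± 0.0036 in 2-D and 7.10 ± 0.341 in 3-D. Over all 4 libraries the ranges of *MTHFD2*, *MTHFD1L* and *PHGDH* overlapped with their neighbours, and those of the other neighbours in this order did not. The order depends on the length used. With the longest transcript in place of all exons, 28 of the 36 pairs of genes kept their order, and with the canonical transcript 27 did, where *PHGDH* moved from 6th to 3rd and 2nd. *PSAT1* stayed first under all of these lengths.

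Ratios between enzymes of the same step were then taken within each library, where scaling cancels out. The length used sets the size of each ratio but not its difference between conditions on the log2 scale. Per kilobase of all exons, the level of *SHMT2* was 4.09 and 3.99 times that of *SHMT1* in 2-D and 4.51 and 4.83 times in 3-D. The log2 ratio was higher in both 3-D libraries, by 0.21. Its mean in 2-D was 2.13 times with the longest and 3.10 times with the canonical transcript. The mitochondrial *MTHFD1L* was at 1.42 and 1.37 times the cytosolic *MTHFD1* in 2-D and at 1.31 and 1.24 times in 3-D, a log2 difference of -0.13 with no overlap. Which of the pair is higher depended on the length, since the 2-D mean was 0.768 times with the longest and 0.358 times with the canonical transcript. *MTHFD2* was at 28.3 and 29.1 times the level of its paralog *MTHFD2L* in 2-D and at 28.4 and 26.6 times in 3-D, which overlapped, with a log2 difference of -0.06. With the longest and the canonical transcript the 2-D mean was 16.4 and 17.9 times. For these 3 ratios the exact two-sided permutation test over libraries gave p = 0.333, 0.333 and 0.667 (0.5, 0.5 and 0.667 after Benjamini-Hochberg adjustment), and 0.333 is the smallest p that 2 against 2 libraries allow. The first 2 are mitochondrial to cytosolic ratios, of which the first was higher and the second lower in both 3-D libraries.

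Other ratios were chosen after the values were seen and are a description. *MTHFD2* to *SHMT2*, enzymes of consecutive mitochondrial steps, went from 0.852 and 0.883 per kilobase of all exons in 2-D to 0.692 and 0.693 in 3-D, a log2 difference of -0.32. The 2-D mean lay above 1 with the other lengths, at 1.14 with the longest and 1.06 with the canonical transcript. *PSAT1* to *PHGDH* went from 8.30 and 8.57 to 7.51 and 7.14, a log2 difference of -0.20, and its 2-D mean was 2.92 with the longest and 1.71 with the canonical transcript.

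**Figure D3:**
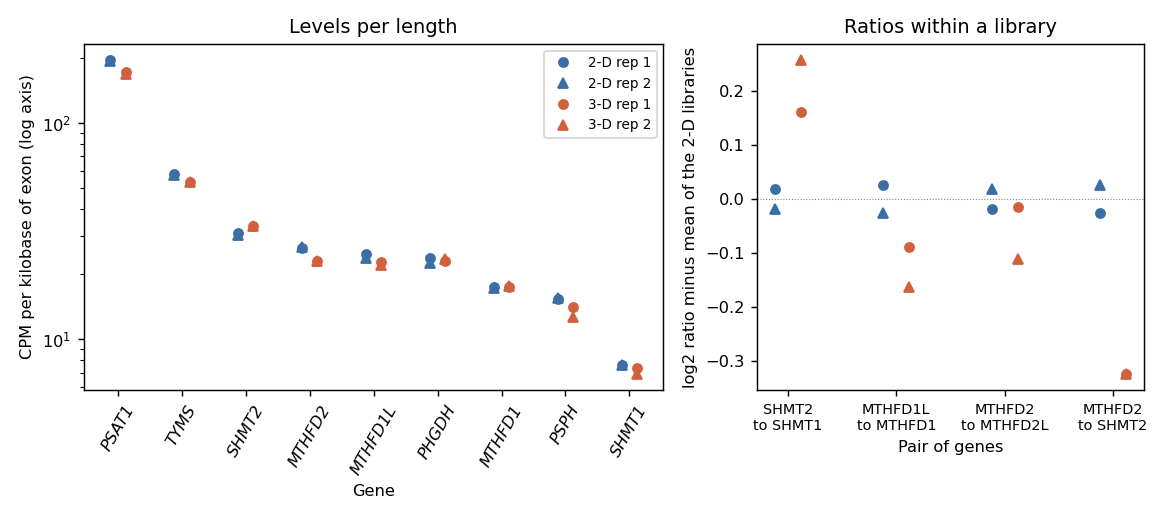
Left, CPM per kilobase of exon (log axis) of each enzyme gene in the 4 libraries, ordered by level. Right, log2 ratio between a pair of genes in each library minus its mean in 2-D. Circles are replicate 1, triangles replicate 2, blue 2-D and orange 3-D. The *SHMT2* to *SHMT1* ratio is higher in 3-D, the *MTHFD1L* to *MTHFD1* and *MTHFD2* to *SHMT2* ratios are lower, and the *MTHFD2* to *MTHFD2L* ratio overlaps.

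The enzymes that feed on or supply this pathway were described from 7 lists of 104 genes, of which 101 were tested and 14 passed, 8 higher and 6 lower in 3-D (13.9%, beside 7.9% of all tested genes). Of the 64 with a mean of at least 30 CPM, 13 passed, or 20.3%, close to the 20.6% of all genes at that level. Of these 14, 4 passed under every alternative and with each library left out (*DUT*, *RRM2B*, *SLC3A2* and *MKI67*). With library size only, *AHCY*, *SLC19A1*, *MCM5*, *ATF4*, *SLC7A5* and *UHRF1* no longer passed, with log2 fold changes from 0.05 to 0.10. In the glycine cleavage system, which breaks glycine down to feed mitochondrial folate, *GCSH*, its carrier protein, was measured at 8.13 and 9.48 CPM in 2-D and 11.6 and 13.6 CPM in 3-D. It rose by 0.51 on the log2 scale (adjusted p = 0.015 in edgeR's test, and 0.062 without 2-D replicate 1), and it shares exons with readthrough genes. The other 3 members did not pass, with log2 fold changes of 0.01 for *GLDC*, -0.14 for *AMT* and -0.03 for *DLD*.

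Among 17 tested folate enzymes and carriers, 1 rose and 1 fell, with a median of -0.0058 on the log2 scale. That is 11.8%, beside 7.9% of all tested genes and 20.6% of those of at least 30 CPM. *SFXN1*, the mitochondrial serine carrier, fell by 0.17 on the log2 scale (adjusted p = 0.034 in edgeR's test, and 0.464 without 2-D replicate 2, where the log2 fold change was -0.096). *SLC19A1*, the reduced folate carrier, rose by 0.12 (adjusted p = 0.033 in edgeR's test, 0.185 and 0.258 without 2-D replicate 1 and 2), but by 0.04 with offsets for length and GC content (adjusted p = 0.437 in the same test), and 1563 of its exon bases are shared with the antisense gene *COL18A1*. In the methionine cycle and transsulfuration list, 1 of 12 tested genes passed (8.33%, beside the same shares). This was *AHCY*, which hydrolyses S-adenosylhomocysteine and rose by 0.12 (adjusted p = 0.040 in edgeR's test, 0.235 and 0.323 without 2-D replicate 1 and 2).

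Purine synthesis draws on the same folate pool. Of its 13 genes, 0 passed in edgeR's test, with an unadjusted p below 0.05 for 2, and 0 passed in DESeq2 or limma-trend. Without 3-D replicate 1, 3 passed (*ATIC*, *GMPS* and *IMPDH2*), and 1 passed with library size only (*PPAT*) and 1 with offsets and the replicate block (*ADSS2*). Their median log2 fold change was 0.035. In pyrimidine and deoxynucleotide supply, the list around *TYMS*, 3 of 13 fell and none rose, with a median of -0.056. That is 23.1% past the test, beside 7.9% of all tested genes and 20.6% of those of at least 30 CPM. *DUT*, which makes the dUMP that TYMS methylates, was measured at 71.5 and 68.3 CPM in 2-D and 56.5 and 56.1 CPM in 3-D, without overlap, and fell by 0.31 on the log2 scale (adjusted p = 5.6e-04 in edgeR's test). *RRM2B*, a ribonucleotide reductase subunit, fell by 0.19 (adjusted p = 0.0028). *UMPS*, of uridylate synthesis, fell by 0.17 (adjusted p = 0.023), and passed only without 3-D replicate 1 when a library was left out, with an adjusted p of 0.103, 0.110 and 0.096 in the fits that left out 2-D replicate 1, 2-D replicate 2 and 3-D replicate 2.

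Among ATF4 and its 23 textbook targets, 2 rose and 2 fell, with a median log2 fold change of -0.02. That is 16.7% past the test, beside 7.9% of all tested genes and 20.6% of those of at least 30 CPM. Only RNA was measured, so the activity of ATF4 is not known, and its part in the changes of *PSAT1* and *MTHFD2* was not tested. *ATF4* itself was measured at 298 and 291 CPM in 2-D and 325 and 321 CPM in 3-D. It rose by 0.14 on the log2 scale (adjusted p = 0.016 in edgeR's test, 0.074 and 0.261 without 2-D replicate 1 and 2), beside the falls of *PSAT1* and *MTHFD2*. The amino acid transporter subunit *SLC7A5* rose by 0.14 (adjusted p = 0.031, 0.056 and 0.091 without 2-D replicate 1 and 2), and by 0.08 with offsets (adjusted p = 0.130) and 0.09 without 3-D replicate 2 (adjusted p = 0.013). Its partner chain *SLC3A2* fell by 0.18 (adjusted p = 0.0033), and the cystine carrier *SLC7A11* fell by 0.15 (adjusted p = 0.040, 0.239 without 2-D replicate 2 and 0.0997 without 3-D replicate 2, where the log2 fold change was -0.085). *ASNS*, asparagine synthetase, did not pass, with a log2 fold change of -0.16 and an adjusted p of 0.655. It does not stand for the other targets that did not pass. Of these, *DDIT3* had -0.40 (adjusted p = 0.073 in edgeR's test), *CEBPB* -0.29 (0.060) and *SARS1* 0.10 (0.096). By log2 fold change, 11 of the 24 genes were higher in 3-D and 13 lower.

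In the S phase and proliferation list, 3 of 18 genes rose and none fell, with a median of 0.047, beside the lower *TYMS*. That is 16.7% past the test, below the 20.6% of all genes of at least 30 CPM and above the 7.9% of all tested genes. *MKI67*, the proliferation marker, rose by 0.27 on the log2 scale (adjusted p = 3.6e-04 in edgeR's test). The paper, by contrast, reports slower proliferation in the scaffolds from direct cell counts. RNA of a marker does not measure growth rate, and how it relates to those cell counts was not tested. *UHRF1*, a maintenance methylation factor, rose by 0.16 (adjusted p = 0.022, 0.229 without 2-D replicate 2). *MCM5*, of the replicative helicase, rose by 0.14 (adjusted p = 0.043). It passed in 4 of the 13 alternatives and, of the fits that left out a library, in that without 3-D replicate 1, with an adjusted p of 0.143, 0.173 and 0.083 in the others and a log2 fold change of 0.08 without 3-D replicate 2.

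**Figure D4:**
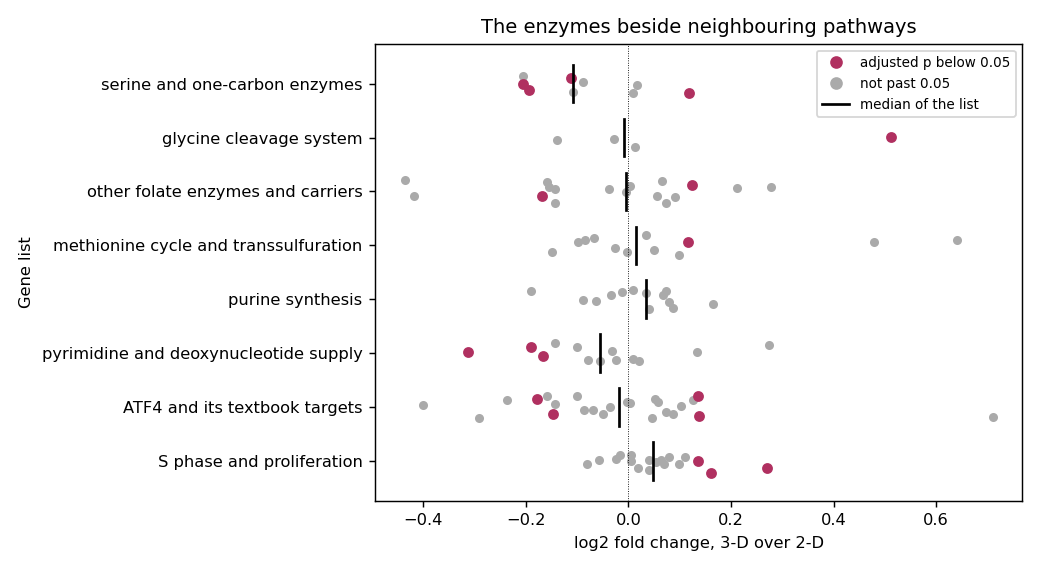
Log2 fold change of 3-D over 2-D (horizontal axis) of every tested gene in the 9 enzymes and in 7 neighbouring lists. Each point is a gene, red where the adjusted p is below 0.05, grey otherwise, and black lines are list medians. The median of the 9 enzymes is -0.11, and the medians of the other lists lie between -0.056 and 0.047.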

How the data were processed

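RNA of 2-D and 3-D grown Elf1 cells was measured in 2 libraries per condition, grouped by their labels. The authors depleted ribosomal RNA, trimmed reads with Trim Galore 0.6.3, mapped them to hg38 with HISAT2 2.1.0 and counted them per gene of GENCODE 30 with featureCounts 1.6.4 (versions from the submitters' processing notes). The deposited counts are whole, unnormalized numbers per gene and library. The deposited normalized signal holds those counts over a DESeq2 size factor per library, and it entered 1 alternative only. That table's log2 fold changes, scores and p-values, adjusted or not, are the authors' and were not used.

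The quasi-likelihood test of edgeR 4.0.16 (R 4.3.3, legacy mode) was applied to the counts with TMM, its filter on low counts, condition as the only term and Benjamini-Hochberg adjustment over 22555 genes. The biological coefficient of variation was 5.10%. Libraries of a condition differed beyond sampling noise (chi-square over degrees of freedom 2.27 in 2-D and 3.92 in 3-D). This cannot tell separate cultures from repeated library preparation, so their independence rests on the statement in the methods. Standard errors come from the test statistic. Of 60564 identifiers, 60295 matched GENCODE 44, used for names, positions, lengths and overlaps. Copies were searched with minimap2 2.31-r1302. Promoters are from RefSeq, GRCh38.p14.

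The named genes are the 9 members, MTHFD2L, every list gene past an adjusted p of 0.05 (up to 6 per list, with all members of lists of 4), and some of the genes overlapping or copying a member. Outside this rule, cell type markers, some ATF4 targets that did not pass, and the purine genes that passed only in another setting are named too. Members and lists were chosen with earlier results of these data known, so no set test was run. The alternatives changed the test (likelihood ratio, DESeq2 1.42.0, limma-trend of limma 3.58.1 on log2 of the normalized values plus 1), the scaling (DESeq2 size factors, library size only, or without genes of the mitochondrial genome, histones and ribosomal proteins), the filter (1 count in all, or 10 in every library) and the terms (a replicate block, offsets for length and GC content, or both). Each library was also left out, which assumes that a lone library varies like the others. The scripts were tested on simulated counts with log2 fold changes of 0.5 and 1 in size. There the quasi-likelihood test recovered 78% and 100% of the changed genes and called 22 unchanged ones. Changes as small as those of the 9 enzymes were not simulated.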

Additional observations from a re-analysis of the deposited data

How the results depend on the processing

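The falls of PSAT1 and MTHFD2 kept their direction and call under all 13 alternatives and with each library left out, and TYMS, PSPH, MTHFD1L, SHMT1 and SHMT2 kept their direction. Of the 9 enzymes, 4 passed in the fit as reported, and 2 passed under the likelihood ratio test, DESeq2, limma-trend and offsets for length and GC content. Without a library, between 2 and 6 passed. Over all genes, 1782 passed as reported, 1139 under the likelihood ratio test, 795 under DESeq2, and between 974 and 2643 without a library. The 7 lists held 14 calls as reported, 5 under the likelihood ratio test, 7 under DESeq2, 8 when counts of 2-D cells were thinned to the depth of 3-D, and between 6 and 27 without a library. Scaling by library size alone gave 2393 calls, of which 21.5% were higher in 3-D, against 57.5% as reported. PHGDH, which did not pass under any setting, changed sign to -0.056 with library size only, -0.0224 with offsets, -0.0223 with offsets and the block, and between -0.022 and 0.039 without a library, below 0 without 2-D replicate 2 and without 3-D replicate 2 (-0.0079). MTHFD1 changed sign to -0.047 with library size only, and to -0.0047 with offsets, with and without the block. The cause of these changes was not tested. Over all tested genes, the deviations of the replicate 1 libraries from the means of their conditions had a correlation of -0.0079. Sampling noise enters this value, so it cannot show whether the libraries were paired by replicate number. A fit with the replicate block called 2167 genes and 6 of the 9 enzymes, with PSPH and MTHFD1L added. Without each library, the difference in the isozyme ratio ran from 0.16 to 0.26 for SHMT2 to SHMT1 and from -0.16 to -0.088 for MTHFD1L to MTHFD1. In both the conditions did not overlap, so leaving a library out could not change the sign. For MTHFD2 to MTHFD2L, where they overlapped, it ran from -0.11 to -0.015. The libraries of PSAT1, MTHFD2, TYMS, PSPH, MTHFD1L, SHMT1 and SHMT2 did not overlap either, so their direction could hardly change without a library and is no added support. The edgeR fit without legacy mode (3 enzymes passed), the thinned libraries (3 passed), the canonical transcripts and the ratios with other lengths were added after seeing the data. With 2 libraries per condition, changes of the size seen in SHMT2 and TYMS lie near the limit of what passes.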
